A study of Homo sapiens with 4 samples.

Results

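The histone genes of MV3 cells were compared between the core and the invasion zone of tumor spheroids. MV3 is an established human melanoma line of high metastatic capacity, and here it carried an H2B-GFP transgene, a fluorescent histone H2B that marks the chromatin. The members were taken by name: every row of the count table whose symbol starts with HIST1H, HIST2H, HIST3H or HIST4H, without the pseudogene symbols ending in PS, and 8 replacement or linker variants (H2AFX, H2AFZ, H2AFV, H2AFY, H3F3A, H3F3B, H1F0 and H1FX). This gave 84 of 56306 gene rows, of which 76 are HIST rows (6 H1, 17 H2A, 23 H2B, 15 H3 and 15 H4). The older symbols are kept as the table gives them. No value of these libraries was used in the rule.

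Spheroids of 50000 cells were grown in collagen I and dissected on day 2, without any drug or irradiation named in the labels. The core was lifted with a 1 mm punch and the corresponding invasion zone with a 3 mm punch, and each zone has 2 libraries, numbered 1 and 2. All 4 libraries carry the transgene, so there was no parental control. Nothing in the labels says that the 2 libraries of a zone came from separate cultures, and p-values then measure the spread between these libraries, which may be technical.

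DNA is wound around octamers of the core histones H2A, H2B, H3 and H4, and histone H1 binds the linker DNA between them. Most histone protein is made in S phase from the replication-dependent genes, which lie in clusters, lack introns and give mRNAs that end in a conserved stem-loop in place of a poly(A) tail. The stem-loop is bound by SLBP, which guides 3′ end processing and translation. Replacement variants such as H2A.Z and H3.3 come from genes outside the clusters, whose mRNAs are polyadenylated and made also outside S phase. The cDNA here was made with a SMARTer Ultra Low Input kit, a method that primes from poly(A) tails, so the counts of replication-dependent genes stand for the molecules that this priming captured and need not follow the whole mRNA pool.

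Of the HIST rows, 53 are annotated on chromosome 6, 16 on chromosome 1 and 1 on chromosome 12 of GRCh38 (GENCODE release 44), and 6 members have an identifier that this release does not hold. The histone stem-loop, searched as 16 bases that begin with GG and end with CC and form at least 5 of 6 stem pairs within 150 bases past the stop codon, was found in all 66 HIST rows with an annotated coding sequence, and in 1 of the 8 variants, H2AFX. The most frequent forms are shown because this element sets the histone mRNA end apart from a polyadenylated end. Capitals mark the paired stem arms of 6 bases and lower case the loop of 4 bases. The search also required cytosine and thymine to end the first arm, thymine to start the loop, and adenine and guanine directly after it. No mismatch to these bases was allowed, so the forms share them because of the search.
HIST1H2AC, HIST1H1D, HIST1H1E and 33 other rows: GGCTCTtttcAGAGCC
HIST1H2BJ, HIST1H2BC, HIST1H2BD and 7 other rows: GGCTCTtttaAGAGCC
HIST1H4C, HIST1H4H and 8 other H4 rows: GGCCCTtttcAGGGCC
HIST1H4I and 3 other H4 rows: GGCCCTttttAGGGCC
H2AFX: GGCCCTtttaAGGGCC
The other 6 forms were each seen in 1 HIST row, and the form of H2AFX was seen in none of them. In HIST1H2AC the element lies at chr6:26124669-26124684 on the plus strand, and its first base is 44 bases past the stop codon. In HIST1H4C it lies at chr6:26104317-26104332 on the plus strand, 58 bases past the stop codon.

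The libraries held 11789243 to 37591782 counts, with both replicate 2 libraries the shallower ones, and the members took 0.267% to 0.317% of them. The 2 libraries of a zone differed by far more than counting error (chi-square per degree of freedom 33.8 in the core and 31.9 in the invasion zone), and each was counted as a separate sample. This spread cannot tell separate cultures from separate library preparations of the same culture. Of the 84 members, 11 had no count in any library, where 3 counts, the limit that a count of 0 allows, correspond to 0.0800 to 0.252 normalized CPM (counts scaled to library size, here with TMM factors). A further 31 stayed under the count filter, and 42 were tested, 34 HIST rows and all 8 variants. A row tested had to reach the filter in 2 libraries, so the tested rows are not all members. Of the melanocyte lineage markers, SOX10 and TYR had no count and the summed level of the 8 genes was 2.91 to 6.06 CPM in all libraries, with MITF at 1.71 to 3.37 CPM, so these markers of the labelled cell type were absent or low. Bulk counts cannot tell fewer cells of a type from less RNA per cell.

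Most replication-dependent genes with enough counts were lower in the invasion zone, while HIST1H4C, the linker genes HIST1H1D and HIST1H1E and the variants of H2A were higher. Of the 42 members tested, 20 had each invasion zone library below each core library (30.3% of all genes tested), 11 had each above (28.1%), and 11 overlapped. HIST1H2AI, among the 20, reached the count filter only in the core libraries. The median log2 fold change, invasion zone over core, was -0.59 over the 34 HIST rows and 0.31 over the 8 variants, against -0.01 over all 15529 genes tested. The difference between the medians was -0.90, and within the replicate numbers it was -0.64 and -1.05.

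By edgeR's quasi-likelihood test without a replicate term, with Benjamini-Hochberg adjustment over all genes, no member passed the limits of an adjusted p under 0.05 with a 2-fold change, and no gene of the table did (0% in each direction). The smallest adjusted p was 0.112 among the members and 0.103 among all genes. At an unadjusted p under 0.05 and a 2-fold change, 2 members were higher and 13 lower (3.19% and 6.41% of all genes), and without the fold limit 21 of 42 passed in either direction (25.4%). DESeq2 called 1 higher and 12 lower at its adjusted p (2.27% and 3.44%). Core and corresponding invasion zone were dissected together, and with the replicate number as a block, which leaves 1 residual degree of freedom, edgeR called 4 members higher and 14 lower (3.79% and 7.39% of all genes). Without the fold limit 9 were higher and 16 lower in that fit (40.1% of all genes in either direction). Among the 14 called lower, HIST1H2AI reached the count filter only in the core libraries. Below, "called with the block" refers to that fit, and each other adjusted p is from the fit without it.

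**Figure D1:**
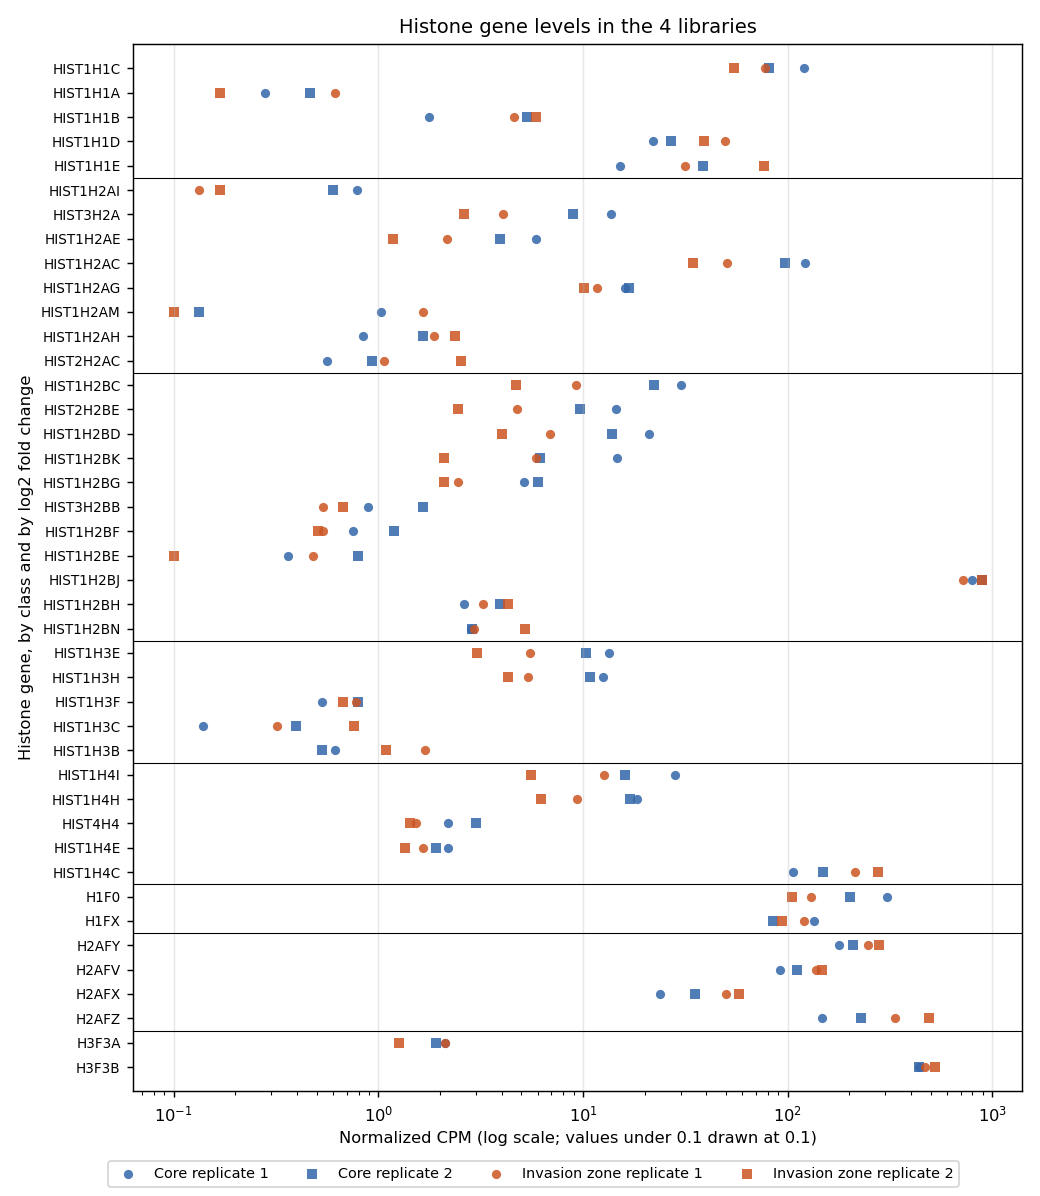
Normalized CPM (log axis, values under 0.1 drawn at 0.1) of the 42 tested histone genes in the 4 libraries, ordered by class with the variants at the bottom and by log2 fold change within a class. Blue points are core and orange points invasion zone libraries, circles replicate 1 and squares replicate 2; most H2A and H2B genes have orange left of blue, and HIST1H4C, H2AFZ and H2AFX have orange right of blue.

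Linker histone genes differed in direction between the zones. HIST1H1C, which encodes H1.2, was the most abundant replication-dependent H1 and had 120 and 81.5 normalized CPM in core replicates 1 and 2 and 77.7 and 54.8 in invasion zone replicates 1 and 2. The invasion zone libraries were both below the core libraries, but the gap between the nearest values was small (log2 fold change -0.60, SE 0.26, edgeR adjusted p = 0.217). HIST1H1D, which encodes H1.3, had 22.1 and 26.8 CPM in the core and 49.5 and 39.2 CPM in the invasion zone. Its zones did not overlap (0.87, SE 0.20, edgeR adjusted p = 0.114).

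HIST1H1E, which encodes H1.4, had 15.1 and 38.5 CPM in the core and 31.4 and 76.3 CPM in the invasion zone. The replicates of a zone lay farther apart than the zones, so the groups overlapped, and within replicates 1 and 2 the differences of log2(CPM + 0.5) were 1.03 and 0.98. Without a replicate term it was not called (1.01, SE 0.58, edgeR adjusted p = 0.327), and with the block it was called higher (edgeR adjusted p = 0.000258). The log2 fold change ran from 0.25 without invasion zone replicate 2 to 1.84 without core replicate 2. HIST1H1B, which encodes H1.5, was low at 1.76 and 5.31 CPM in the core and 4.62 and 5.89 CPM in the invasion zone, with overlap. HIST1H1A, which encodes H1.1, had at most 0.614 CPM, and the testis gene HIST1H1T was not tested.

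The linker variants outside the clusters differed from each other. H1F0, which encodes H1.0, a linker histone known to accumulate in cells that leave the cycle or differentiate (chr22:37805229-37807432, plus strand), had 306 and 202 CPM in the core and 130 and 105 CPM in the invasion zone. Its zones did not overlap, with a log2 fold change of -1.12 (SE 0.24, edgeR adjusted p = 0.112, and 0.000144 with the block, where it was called lower). H1FX, which encodes H1.10, had 134 and 84.6 CPM in the core and 120 and 93.9 CPM in the invasion zone, and the zones overlapped (-0.03, SE 0.26, edgeR adjusted p = 0.956). The sign of this difference turned without core replicate 1 or invasion zone replicate 2.

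As a share of all H1 counts, H1F0 made up 51.0% (95% Wilson interval 50.3 to 51.7) and 46.0% (44.8 to 47.2) in the core libraries. In the invasion zone it made up 31.4% (30.6 to 32.1) and 27.9% (26.7 to 29.3). HIST1H1D had 3.68% (3.43 to 3.94) and 6.10% (5.54 to 6.70) in the core and 11.9% (11.4 to 12.5) and 10.5% (9.59 to 11.4) in the invasion zone. These are shares of counts and not of molecules, since the genes differ in length, and the intervals cover counting error only. The summed replication-dependent H1 counts lay close together, with 160 and 153 CPM in the core and 164 and 176 CPM in the invasion zone (log2 ratio 0.12).

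**Figure D2:**
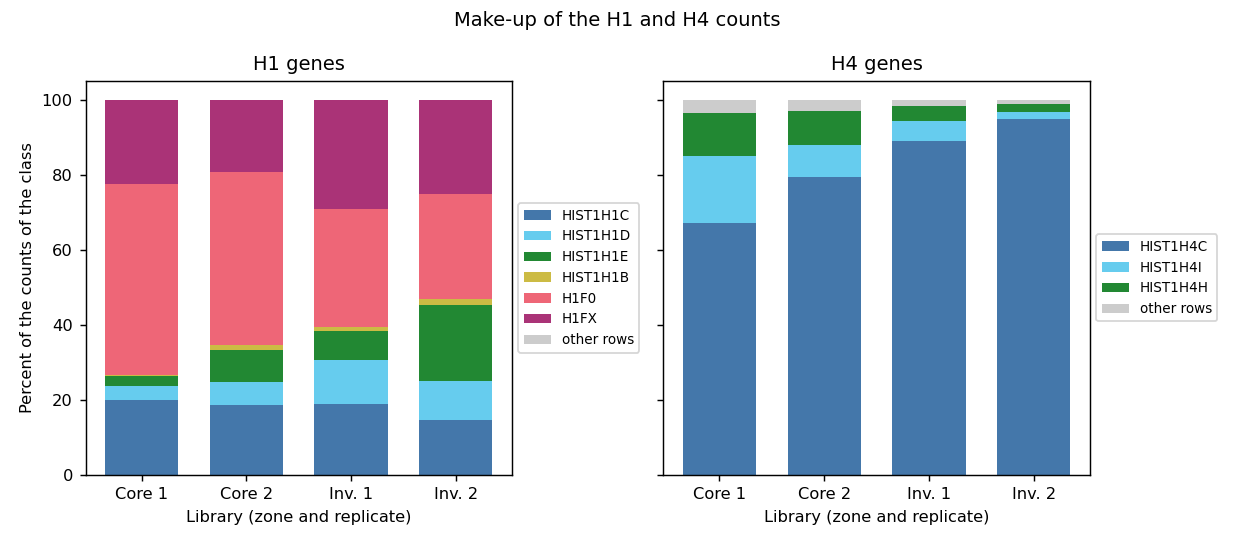
Percent of the H1 counts (left) and of the H4 counts (right) that each gene took in the 4 libraries, drawn as stacked bars that sum to 100. H1F0 took 51.0% and 46.0% of H1 counts in the core and 31.4% and 27.9% in the invasion zone, and HIST1H4C took a larger share of H4 counts in both invasion zone libraries than in either core library.

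Replication-dependent H2A genes were mostly lower in the invasion zone. Of 17 rows 8 were tested, 5 had both invasion zone libraries below the core and 2 had both above (30.3% and 28.1% of all genes). The median log2 fold change was -0.97. This median and the 5 rows below the core include HIST1H2AI, which reached the count filter only in the core libraries. HIST1H2AC (chr6:26124145-26139116, plus strand) led the class with 121 and 97.0 CPM in the core and 50.5 and 34.3 CPM in the invasion zone. The zones stood well apart, with a log2 fold change of -1.36 (SE 0.23, edgeR adjusted p = 0.112, and 0.000101 with the block). HIST3H2A, on chromosome 1 at a small cluster apart from the large one, had 13.7 and 8.89 CPM in the core and 4.08 and 2.61 CPM in the invasion zone (-1.70, SE 0.35, edgeR adjusted p = 0.112, and 0.000386 with the block).

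HIST1H2AE had 5.87 and 3.91 CPM in the core and 2.16 and 1.18 CPM in the invasion zone, and was called lower with the block (-1.46, edgeR adjusted p = 0.126, and 0.00241 with the block). Without invasion zone replicate 1 its log2 fold change was -2.08. HIST1H2AI had the lowest fold change of the class, -2.30 (SE 0.59), and was called lower with the block (edgeR adjusted p = 0.0106), but on only 28 and 9 counts in the core and 5 and 2 in the invasion zone. It reached the count filter only in the core libraries, so its being tested already favored a lower invasion zone, and its call carries no weight. In this row 63.5% of the 50-base windows recur elsewhere in the genome, and counting uniquely mapped reads may have lost reads there. HIST1H2AG had 16.1 and 16.8 CPM in the core and 11.7 and 10.1 CPM in the invasion zone, a smaller difference of -0.58 (SE 0.20, edgeR adjusted p = 0.158).

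A few low H2A rows pointed the other way. HIST2H2AC, on chromosome 1, had 0.559 and 0.929 CPM in the core and 1.07 and 2.52 CPM in the invasion zone, and was called higher with the block (1.17, SE 0.61, edgeR adjusted p = 0.290, and 0.0394 with the block), with 24% of its windows repeated. HIST1H2AH had 0.838 to 2.36 CPM, with both invasion zone libraries above the core. HIST1H2AM had 37 and 2 counts in the core and 62 and 0 in the invasion zone, and 346 of its 487 exonic bases are shared with a neighboring H3 gene on the same strand, so that its direction could not be read.

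The H2A variants were higher in the invasion zone. H2AFZ, which encodes H2A.Z, a variant placed around transcription start sites and needed through the cell cycle (chr4:99948086-99950355, minus strand), had 147 and 228 CPM in the core and 335 and 489 CPM in the invasion zone. The lowest invasion zone library stood above the highest core library. The log2 fold change was 1.14 (SE 0.28, edgeR adjusted p = 0.119), and it was called higher with the block (edgeR adjusted p = 9.34e-05) and by DESeq2 (adjusted p = 0.00415). H2AFX, which encodes H2A.X, the variant phosphorylated at DNA breaks, had 23.7 and 35.3 CPM in the core and 49.9 and 57.6 CPM in the invasion zone, without overlap (0.87, SE 0.23, edgeR adjusted p = 0.124).

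H2AFV, which encodes a second form of H2A.Z, had 91.5 and 111 CPM in the core and 137 and 147 CPM in the invasion zone (0.50, SE 0.15, edgeR adjusted p = 0.143). H2AFY, which encodes macroH2A1, a variant linked to silent chromatin, had 178 and 209 CPM in the core and 247 and 279 CPM in the invasion zone (0.44, SE 0.15, edgeR adjusted p = 0.161). Neither overlapped between the zones, and their differences were under the 2-fold limit in each replicate. The summed counts of these 4 variants were 440 and 582 CPM in the core and 769 and 973 CPM in the invasion zone (log2 ratio 0.77), while those of the replication-dependent H2A rows were 160 and 130 CPM against 74.1 and 53.8 CPM (log2 ratio -1.18). Within all H2A counts, HIST1H2AC made up 20.2% and 13.6% in the core and 5.99% and 3.34% in the invasion zone, and H2AFZ 24.5% and 32.0% against 39.7% and 47.6%.

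The H2B class was dominated by HIST1H2BJ (chr6:27125897-27132795, minus strand), with 796 and 891 CPM in the core and 716 and 888 CPM in the invasion zone. The zones overlapped (-0.07, SE 0.18, edgeR adjusted p = 0.837), and the sign turned without core replicate 2 or invasion zone replicate 1. It held 89.4% and 92.8% of all H2B counts in the core and 94.9% and 97.0% in the invasion zone. Per kilobase of annotated exon it was also the highest member, at 806 CPM per kb in the core and 767 in the invasion zone, where HIST1H4C had 315 and 605. All libraries carry an H2B-GFP transgene whose H2B part the sources used here do not name. Reads of the transgene could fall on this or another H2B row, and its part in the level was not tested.

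Without HIST1H2BJ the H2B counts were lower in the invasion zone, with 94.3 and 69.6 CPM in the core and 38.6 and 27.3 CPM in the invasion zone (log2 ratio -1.31, against -0.15 with it). Of 23 rows 11 were tested, 7 had both invasion zone libraries below the core (30.3% of all genes), and the median log2 fold change was -1.02. HIST1H2BC had the largest difference, with 30.2 and 22.2 CPM in the core and 9.23 and 4.71 CPM in the invasion zone. Its log2 fold change was -1.85 (SE 0.35, edgeR adjusted p = 0.112, and 0.000182 with the block), and -2.48 without invasion zone replicate 1. The annotated exons of this row share 890 bases with genes on the opposite strand, HFE among them, and the strand setting of the counting is not given in the sources used here, so some of its reads may belong to them.

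HIST2H2BE, on chromosome 1, had 14.5 and 9.62 CPM in the core and 4.78 and 2.44 CPM in the invasion zone (-1.66, SE 0.38, edgeR adjusted p = 0.115, and 0.000443 with the block), and its log2 fold change without invasion zone replicate 1 was -2.32. HIST1H2BD had 20.9 and 13.9 CPM in the core and 6.91 and 4.04 CPM in the invasion zone (-1.62, SE 0.35, edgeR adjusted p = 0.112, and 0.000268 with the block). In both, every invasion zone library was below every core library. HIST1H2BK (-1.30) and HIST1H2BG (-1.25) were also called lower with the block, with 57.2% of windows repeated in HIST1H2BK. HIST1H2BH and HIST1H2BN stood on the other side of zero, at 0.21 and 0.42, with edgeR adjusted p = 0.747 and 0.523.

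**Figure D3:**
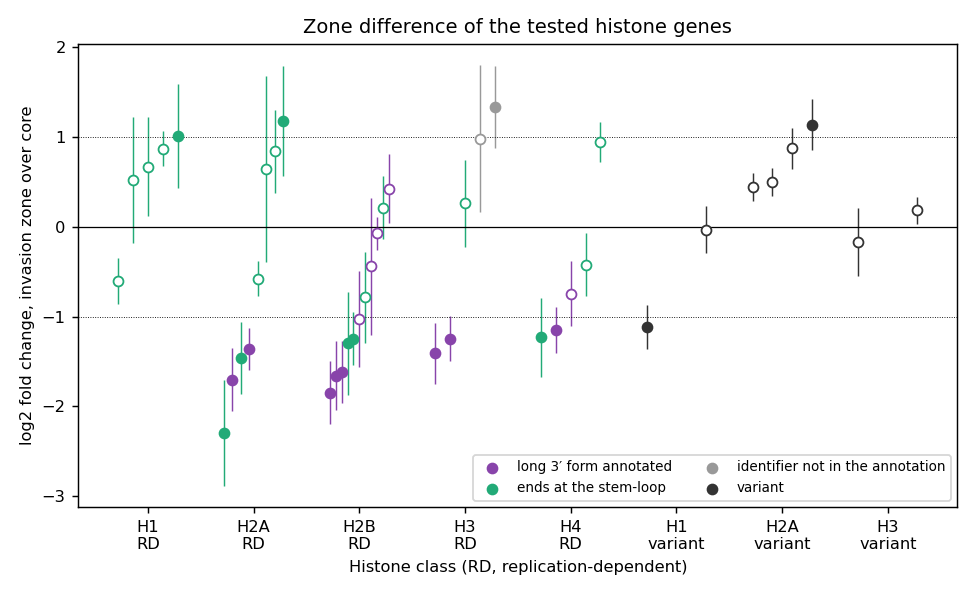
Log2 fold change, invasion zone over core, of the 42 tested members by class (RD, replication-dependent), with bars of 1 SE. Filled points were called with the replicate block and open points were not; colors mark rows with a long annotated 3′ form, rows ending at the stem-loop, rows whose identifier is not in the annotation, and variants, and dotted lines mark a 2-fold difference.

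Replication-dependent H3 genes were scarce. The summed counts were 27.7 and 23.6 CPM in the core and 14.1 and 10.2 CPM in the invasion zone (log2 ratio -1.08), and 5 of 15 rows were tested. HIST1H3E had 13.5 and 10.3 CPM in the core and 5.52 and 3.03 CPM in the invasion zone (-1.41, SE 0.34, edgeR adjusted p = 0.118, and 0.000967 with the block). HIST1H3H had 12.5 and 10.8 CPM in the core and 5.39 and 4.29 CPM in the invasion zone (-1.24, SE 0.25, edgeR adjusted p = 0.112, and 0.00119 with the block). These 2 rows made up most of the class, so its sum followed them.

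The remaining H3 rows were much lower. HIST1H3B had 22 and 8 counts in the core and 63 and 13 in the invasion zone, and was called higher with the block (1.33, SE 0.45, edgeR adjusted p = 0.155, and 0.0230 with the block). HIST1H3F (0.26) and HIST1H3C (0.98) overlapped between the zones at under 1 CPM each. The class median of 0.26 therefore lay opposite in sign to the summed counts, and within the replicates the median difference was 0.31 and -0.14.

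The H3.3 gene H3F3B (chr17:75776434-75785893, minus strand), which supplies the replacement H3 used in transcribed chromatin, had 438 and 437 CPM in the core and 467 and 527 CPM in the invasion zone (0.18, SE 0.15, edgeR adjusted p = 0.475). It held 93.6% to 97.9% of all H3 counts in the 4 libraries. The second H3.3 gene, H3F3A, was at 1.26 to 2.12 CPM with overlap, but 94.0% of its windows recur elsewhere, and unique mapping removes such reads, so its level is not a measure of its mRNA.

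Histone H4 is encoded by many genes for the same protein, and here a single gene carried the class. HIST1H4C (chr6:26103933-26104337, plus strand) had 107 and 148 CPM in the core and 213 and 277 CPM in the invasion zone. The zones did not overlap, and the log2 fold change was 0.94 (SE 0.22, edgeR adjusted p = 0.116, and 0.000133 with the block, just under the 2-fold limit). Within replicates 1 and 2 the differences were 0.99 and 0.90. It took 67.2% (65.99 to 68.4) and 79.4% (77.8 to 80.8) of the H4 counts in the core, and 89.1% (88.4 to 89.7) and 94.8% (94.0 to 95.5) in the invasion zone.

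The other tested H4 rows were lower in the invasion zone, each without overlap (both libraries below the core in 30.3% of all genes). HIST1H4I had 28.1 and 16.1 CPM in the core and 12.6 and 5.55 CPM in the invasion zone (-1.23, SE 0.44, edgeR adjusted p = 0.168, and 0.000553 with the block), with -2.005 on the log2 scale without invasion zone replicate 1. HIST1H4H had 18.3 and 17.0 CPM in the core and 9.37 and 6.23 CPM in the invasion zone (-1.15, SE 0.26, edgeR adjusted p = 0.113, and 0.00141 with the block). HIST4H4, the only member on chromosome 12, was at -0.75 and HIST1H4E at -0.42, and neither was called. The summed H4 counts were 159 and 187 CPM in the core and 239 and 293 CPM in the invasion zone (log2 ratio 0.62), while the median over the 5 tested rows was -0.75, since 1 row set the sum and 4 set the median.

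**Figure D4:**
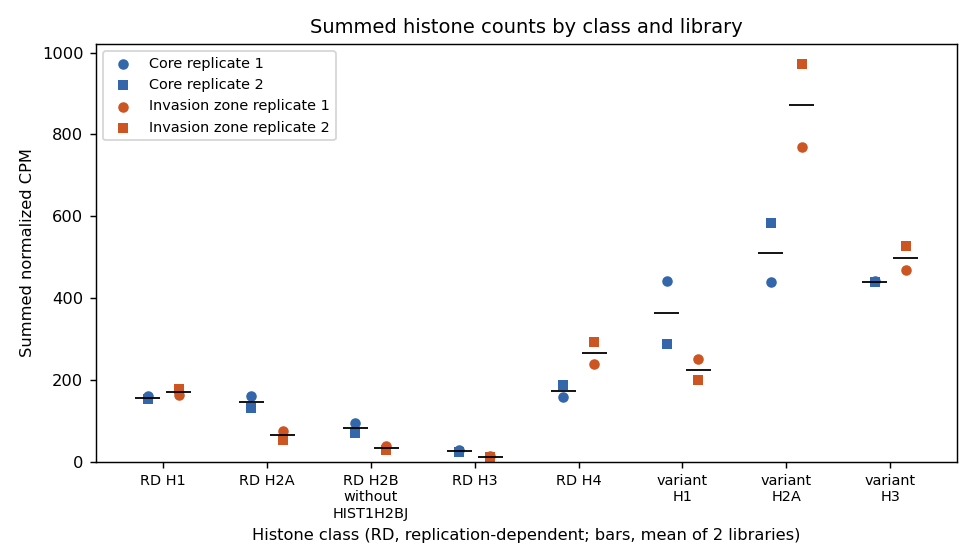
Summed normalized CPM of all rows of each histone class in the 4 libraries, with bars at the mean of the 2 libraries of a zone; HIST1H2BJ is left out of H2B. Replication-dependent (RD) H2A, H2B and H3 lie lower in both invasion zone libraries, RD H4 and the H2A variants lie higher, and the H1 variants lie lower.

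The HIST rows were then grouped by annotated mRNA end, a grouping chosen after their values had been seen and described here without a test. In 17 rows an annotated transcript ends more than 100 bases past the stem-loop, and in 49 rows no annotated end lies more than 18 bases past it. In HIST1H2AC the farthest end is 14432 bases past the stem-loop, in HIST1H2BD 12747, in HIST2H2BE 1729 and in HIST1H3H 769. Of the rows with a long form 13 were tested, and 12 had a negative log2 fold change, with a median of -1.24. Both invasion zone libraries were below the core in 10 (30.3% of all genes), and 8 were called lower with the block (7.39% of all genes).

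Of the rows ending at the stem-loop 19 were tested, with 10 positive and 9 negative log2 fold changes. Their median was 0.21, a value that turned negative under several alternatives and reached -0.70 without invasion zone replicate 1. With the block 2 were called higher (HIST1H1E and HIST2H2AC) and 5 lower (HIST1H2AI, HIST1H2AE, HIST1H2BK, HIST1H2BG and HIST1H4I), against 3.79% and 7.39% of all genes. Of these, HIST1H2AI reached the count filter only in the core libraries. A single gene weighed on the summed counts of each group. The rows with a long form, HIST1H2BJ among them, summed to 1047 and 1089 CPM in the core and 818 and 957 CPM in the invasion zone (log2 ratio -0.27). Without HIST1H2BJ they summed to 252 and 198 CPM against 102 and 69.3 CPM (log2 ratio -1.39). The rows ending at the stem-loop summed to 348 and 364 CPM in the core and 425 and 489 CPM in the invasion zone (log2 ratio 0.36). Without HIST1H4C they summed to 242 and 215 CPM against 212 and 212 CPM, and the direction turned (log2 ratio -0.11). The class was not balanced between these groups, since all tested H1 rows end at the stem-loop.

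**Figure D5:**
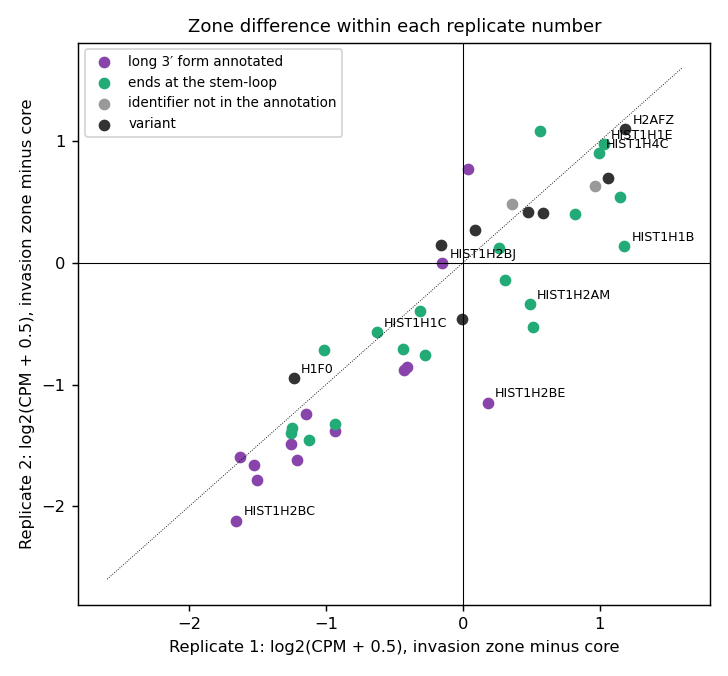
Difference of log2(CPM + 0.5), invasion zone minus core, in replicate 1 (x axis) and replicate 2 (y axis) for the 42 tested members, colored by annotated mRNA end; the dotted line marks equal differences. H2AFZ, HIST1H1E and HIST1H4C lie at the upper right, HIST1H2BC at the lower left, and low rows such as HIST1H2BE and HIST1H2AM differ in sign between the replicates.

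Many H2A and H2B genes share a short divergent promoter. Among the members 12 head-to-head pairs of an H2A and an H2B gene had starts 170 to 251 bases apart, 6 had both genes tested, and 4 of these had the same sign. HIST1H2BC (-1.85) and HIST1H2AC (-1.36) start 219 bases apart, and HIST1H2BG (-1.25) and HIST1H2AE (-1.46) start 233 bases apart. In the pairs HIST2H2BE (-1.66) with HIST2H2AC (1.17) and HIST1H2BK (-1.30) with HIST1H2AH (0.84), the signs were opposite. The comparison of these pairs is limited by repeated windows in HIST1H2BK and HIST2H2AC and by the 153 counts of HIST1H2AH in all libraries. Pairs of the same sign had limits too. HIST3H2BB, paired with HIST3H2A, had 85 counts in all libraries and 33.7% of its windows repeated. HIST1H2BJ, paired with HIST1H2AG, was at -0.07 with overlapping zones, and its sign turned when single libraries were left out.

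Promoters of 250 bases before to 50 bases after the start were taken from RefSeq (GRCh38.p14), where 72 of the 84 members matched. They were searched on both strands for the CCAAT box, the octamer ATTTGCAT, the TATAAA box, the H1 box AAACACA, and the E2F-type letters TTTCCCGC and TTTGGCGC. None of these motifs overlaps another in its definition. CCAAT was in all 6 H1, 16 H2A, 18 H2B and 12 H3 promoters matched and in 3 of 13 H4 promoters, against 35.7% of 27303 promoters. HIST1H4C had no matched promoter, so the H4 values leave it out. The octamer was in 14 of 18 H2B and 11 of 16 H2A promoters (1.8% of all promoters), and the H1 box in 6 of 6 H1 promoters (5.76%). The windows of a head-to-head H2A and H2B pair overlap, so the same CCAAT or octamer site can be counted for both genes. The octamer of HIST1H2BC and HIST1H2AC is such a site, and the H2A and H2B counts are not independent. TATAAA was in 66.2% of the 65 HIST promoters (12%), and the E2F-type letters in 1 of the 72 (2.31%). A match describes letters and not a site in use.

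The promoters of a linker gene that was higher, of the divergent pair with the lowest values, and of the variant with the highest fold change are shown, with CCAAT, the octamer, TATAAA and the H1 box in capitals, in either orientation. The HIST1H1D window is chr6:26234938-26235237 on the minus strand, that of HIST1H2AC is chr6:26123922-26124221 on the plus strand and includes the start of HIST1H2BC on the opposite strand, and that of H2AFZ is chr4:99950226-99950525 on the minus strand.
HIST1H1D: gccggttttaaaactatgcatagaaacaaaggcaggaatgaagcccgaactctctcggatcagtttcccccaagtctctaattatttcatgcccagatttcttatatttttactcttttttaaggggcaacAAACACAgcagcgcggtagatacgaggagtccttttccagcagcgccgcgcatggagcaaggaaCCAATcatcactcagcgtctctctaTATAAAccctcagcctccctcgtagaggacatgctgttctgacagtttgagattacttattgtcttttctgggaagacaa
HIST1H2AC: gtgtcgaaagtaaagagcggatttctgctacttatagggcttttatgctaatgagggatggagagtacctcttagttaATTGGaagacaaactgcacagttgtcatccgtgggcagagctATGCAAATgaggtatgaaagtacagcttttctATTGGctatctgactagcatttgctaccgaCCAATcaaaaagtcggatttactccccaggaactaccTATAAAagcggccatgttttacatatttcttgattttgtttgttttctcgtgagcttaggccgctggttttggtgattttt
H2AFZ: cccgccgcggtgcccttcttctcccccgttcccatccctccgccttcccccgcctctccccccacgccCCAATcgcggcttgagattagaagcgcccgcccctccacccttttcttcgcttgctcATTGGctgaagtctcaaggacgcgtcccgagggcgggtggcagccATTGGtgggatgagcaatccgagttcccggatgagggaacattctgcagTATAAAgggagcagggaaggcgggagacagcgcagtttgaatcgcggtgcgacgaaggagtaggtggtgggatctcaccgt
The HIST1H1D window holds the H1 box, CCAAT and TATAAA in that order toward the start. The HIST1H2AC window holds the octamer between 3 CCAAT boxes, and H2AFZ has 3 CCAAT boxes and TATAAA but no octamer.

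The genes that make and process histone mRNA were mostly a little higher in the invasion zone. The list held 17 genes, from the transcription activator NPAT and the cyclin E/CDK2 kinase that acts on it to the end-processing and decay factors. All 17 had a positive log2 fold change (median 0.46, against -0.01 over all genes), and 14 had both invasion zone libraries above the core (28.1% of all genes). None was called without a replicate term, and with the block CCNE2 was called higher (3.79% of all genes). At an adjusted p under 0.05 with the block and no fold limit, 15 were higher and 0 lower (40.1% of all genes in either direction).

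SLBP had 84.8 and 97.8 CPM in the core and 116 and 135 CPM in the invasion zone (0.46, SE 0.15, edgeR adjusted p = 0.155). CASP8AP2, which encodes the processing factor FLASH, had 40.01 and 37.7 CPM in the core and 49.5 and 52.8 CPM in the invasion zone (0.39, SE 0.14, edgeR adjusted p = 0.172). NPAT had 32.6 and 29.5 CPM against 37.7 and 29.5 CPM and overlapped (0.12, SE 0.19, edgeR adjusted p = 0.736). CCNE2, which encodes cyclin E2, had the largest difference of the list, with 9.22 and 16.2 CPM in the core and 28.9 and 34.8 CPM in the invasion zone (1.35, SE 0.30, edgeR adjusted p = 0.114, and 0.000397 with the block).

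Of 23 histone chaperone and deposition genes 18 had a positive log2 fold change (median 0.43). None was called without a replicate term, and with the block 4 were called higher, CHAF1A, CHAF1B, ASF1B and HJURP, and 0 lower (3.79% and 7.39% of all genes). CHAF1A, the large subunit of the CAF-1 complex that deposits H3 and H4 on new DNA, had 21.2 and 34.3 CPM in the core and 61.0 and 77.005 CPM in the invasion zone (1.32, SE 0.27, edgeR adjusted p = 0.112, and 0.000156 with the block). CHAF1B, its partner subunit, had a log2 fold change of 1.16 and ASF1B, which hands H3 and H4 to CAF-1, one of 1.20. NASP, which keeps a store of soluble H3 and H4, was at 0.58 (SE 0.14, edgeR adjusted p = 0.118).

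The chaperones that deposit H3.3 outside replication were nearer to zero or negative. HIRA was at 0.07, UBN1 at -0.36, CABIN1 at -0.20, DAXX at 0.24 and ATRX at -0.38, with edgeR adjusted p = 0.854, 0.208, 0.479, 0.299 and 0.35. With the block the edgeR adjusted p was 0.707, 0.00978, 0.231, 0.0398 and 0.00438 in the same order, all under the 2-fold limit. Other genes of the list also lay near zero or below it, ASF1A at 0.13, RBBP4 at -0.10 and SPTY2D1 at -0.28. These were chosen for naming after their values had been seen. CENPA, the centromeric H3 variant outside the rule, had 20.9 and 40.7 CPM in the core and 60.4 and 74.7 CPM in the invasion zone, and was called higher with the block (1.14, SE 0.33, edgeR adjusted p = 0.136, and 0.000556 with the block), and its chaperone HJURP had 37.8 and 84.0 CPM against 122 and 150 CPM. The other variants outside the rule with counts, H2AFJ, H3F3C and H2AFY2, overlapped between the zones.

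Markers of proliferating cells moved with the zones. All 11 genes, among them PCNA, MCM2, MKI67 and TOP2A, had both invasion zone libraries above the core (28.1% of all genes). Their median log2 fold change was 1.22, and 9 were called higher with the block (3.79% of all genes). Their summed level was 611 to 1164 CPM in the core and 1851 to 2201 CPM in the invasion zone, and their part in the histone differences was not tested. The core replicates differed in this level by more than the invasion zone replicates did, with core replicate 1 the lowest library, as it was also for HIST1H1E, HIST1H1B, HIST1H4C, H2AFX and H2AFZ.

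Markers of other cell types were mostly low or absent, with PDGFRA and, at a lower level, PECAM1 as the exceptions. Epithelial markers (3 genes) summed to 0.0663 to 0.196 CPM in the core and 0 to 0.133 CPM in the invasion zone, and leukocyte markers (3 genes) to 1.13 to 1.56 and 0.320 to 0.337 CPM, with CD3E at 0. Of the 4 fibroblast markers DCN and LUM were at 0, and the sum, nearly all of it PDGFRA, was 59.4 to 97.2 CPM in the core and 13.7 to 38.6 CPM in the invasion zone. The 3 endothelial markers summed to 7.63 to 18.3 CPM in the core and 0.926 to 5.76 CPM in the invasion zone, nearly all of it PECAM1, with CDH5 at 3 counts in core replicate 2, 4 in invasion zone replicate 1 and 0 elsewhere. PDGFRA, COL3A1, CD14 and PECAM1 were lower in the invasion zone in the same direction as most HIST rows, and their part in those differences was not tested. CD14 reached the count filter only in the core libraries, so its being tested already favored a lower invasion zone. COL3A1 had only 17 and 1 counts in the invasion zone.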

How the data were processed

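Bulk RNAseq of 2 core and 2 invasion zone libraries was analysed. The deposited values are raw counts. Per the paper's methods, the authors removed ribosomal reads with Bowtie, filtered reads by quality, used STAR to align the rest to hg38, counted reads that mapped uniquely to each gene (HTSeq-count), and compared the zones with DESeq2. The sources used here give no versions, annotation release or strand setting. Unique mapping can lose reads of near-identical histone copies.

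In R 4.3.3, 3 repeated identifiers without counts were left out, and genes with 10 counts at the median library size in 2 libraries and 15 in total were kept (15529 of 56306). Zones were compared with edgeR 4.0.16 (TMM, quasi-likelihood, Benjamini-Hochberg over all genes; called at adjusted p under 0.05 and 2-fold), after a check on simulated counts. The protocol takes the core and then its corresponding invasion zone, and the column names number the libraries of a replicate consecutively. This was taken as pairing, although no source states it. Libraries of the same number deviated from the zone means together (correlation 0.58 across genes, 2 pairs). CPM are normalized by TMM. Class values are sums of CPM over all rows of a class, given without a test because the members were chosen with earlier results known. Intervals are 95% Wilson intervals.

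The members and gene lists were chosen with earlier results of these data known. Named were, per class, the 4 replication-dependent rows with the highest mean CPM and the 2 with the largest fold change, all 8 variants, and listed processing and chaperone genes; other genes were chosen after their values were seen. Positions, exons and 3′ ends came from GENCODE release 44 (GRCh38), and stem-loops were searched within 150 bases past the stop codon. Repeated windows are 50-base windows of the transcript that the annotation marks as canonical, found more than once in the genome. Exons outside that transcript, such as those of other long 3′ forms, were not covered. Alternatives were DESeq2 1.42.0, limma voom 3.58.1, edgeR's legacy mode, RLE and upper-quartile scaling, other count filters, thinning to the smallest library, each library left out and other thresholds.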

Additional observations from a re-analysis of the deposited data

How the results depend on the processing

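The members' calls depended on the replicate term and the tool. Without a replicate term edgeR called 0 genes. With the replicate block it called 588 genes higher and 1147 lower, among them 4 and 14 members, 1 mRNA processing and 4 chaperone genes, all of these list genes higher. DESeq2 called 353 and 534 genes (1 and 12 members, 1 processing and 4 chaperone genes), and DESeq2 with the block, added after seeing the data, 428 and 750 (2 and 13 members, 1 and 5). At unadjusted p, edgeR called 495 and 995 genes (2 and 13 members, 1 and 4), and DESeq2 444 and 840 (2 and 13 members, 1 and 4). With no count filter edgeR called 81 and 191 genes (0 and 2 members, 2 chaperone genes). Leaving out 1 library gave 0 to 534 genes higher and 29 to 986 lower, with 0 to 4 and 0 to 12 members, 0 to 2 processing genes and 0 to 6 chaperone genes (without core replicate 2, 4 and 6 members, 2 and 6 list genes; without invasion zone replicate 1, 3 and 12, and 2 and 4). In these fits the lone library of a zone is assumed to vary like the other zone's.

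Without 1 library, the median ran from -0.86 to -0.43 for HIST rows, 0.24 to 0.40 for variants, -1.67 to -1.12 for rows with a long form and -0.70 to 0.070 for rows ending at the stem-loop, and the difference of medians from -1.26 to -0.68, the lowest of each negative one without invasion zone replicate 1. Summed counts ran from -1.43 to -0.97 (H2A), -0.29 to -0.016 (H2B), -1.33 to -0.86 (H3), 0.47 to 0.76 (H4), -0.97 to -0.35 (H1 variants) and 0.58 to 0.99 (H2A variants). Without HIST1H2BJ the H2B ratio was -1.31, and with at least 10 counts in every library the H3 ratio was -1.37. Of the medians and sums in this paragraph, only the median of the rows ending at the stem-loop changed sign under an alternative. The medians of single classes and of the gene lists were not recomputed. Of the members called with the block, HIST1H2BK, HIST1H2BG and HIST2H2AC were not in the check of folds without 1 library. For the others, the fold moved by over 1.5 times without invasion zone replicate 1 in HIST1H2AE, HIST1H2BC, HIST2H2BE and HIST1H4I. It did so without core replicate 2 or invasion zone replicate 2 in HIST1H1E.

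Signs turned when 1 library was left out for H1FX (-0.32 to 0.35, positive without core replicate 1 at 0.35 and without invasion zone replicate 2 at 0.13, and 0.0023 in DESeq2 with the block), H3F3A (-0.69 to 0.044, positive without invasion zone replicate 2), HIST1H1B (-0.028 to 1.56) and HIST1H3F (-0.093 to 0.48, both negative without core replicate 1), HIST1H2BJ (-0.24 to 0.075, positive without core replicate 2 at 0.023 and without invasion zone replicate 1) and NPAT (-0.078 to 0.28, negative without invasion zone replicate 1). This check covered the named genes only, so a sign that turned in another tested member is not listed. The cause of these turns was not tested. Depth limits the rows under 100 counts in all libraries together, 49 of the 76 HIST rows.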
